A study of Homo sapiens with 24 samples.

Results

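RNA was sequenced from 293T cells, an established line of human embryonic kidney origin. The cells are a double knockout of ZFX and ZNF711 (DKO cells), and they carried either of a pair of FLAG-tagged ZFX constructs. The 6 libraries compared here, of 24 in the series, are the 3 labelled ZFX12_13 and the 3 labelled wtZFX, taken by their titles. The ZFX12_13 libraries carry the treatment label ZFX FLAG and the wtZFX libraries wt ZFX FLAG, and nothing in the labels explains the numbers in the name ZFX12_13. The series text calls the constructs other than the wild type mutant. All 6 share the double knockout and expression from transfected plasmids, and 3 further DKO libraries with the empty vector pCMV6 give levels without a construct. The question of the comparison is which RNAs differed between cells given the mutant construct and cells given wild-type ZFX, tested directly on the 2 groups. The 3 libraries of a group are called biological replicates, but separate cultures are not stated, so p-values measure the spread between these libraries, which may be technical.

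ZFX is a zinc finger protein encoded on the X chromosome that binds DNA and activates transcription. It is known to occupy CpG island promoters just downstream of the start site, and its close paralog ZNF711 binds many of the same promoters. Its zinc fingers contact DNA and an acidic region at the other end of the protein activates transcription.

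The ZFX12_13 libraries held 16223239 to 17339101 reads counted on genes, against 20172131 to 24272308 in wtZFX libraries, so each ZFX12_13 library was shallower than each wtZFX library. Reads on ZFX, which include the construct, made up 2.204%, 1.767% and 1.62% of gene counts in ZFX12_13 libraries, against 1.68%, 1.453% and 1.497% in wtZFX libraries and 0.02197%, 0.02218% and 0.02393% with pCMV6. All 6 libraries with a construct therefore stood far above the empty vector, and the ranges of both constructs overlapped (log2 change 0.28, SE 0.11, adjusted p = 0.0957 by edgeR's quasi-likelihood test with Benjamini-Hochberg adjustment). The log2 change of ZFX passed the threshold in 3 of 15 alternative fits: it was 0.27 with a replicate block (adjusted p = 0.00146, edgeR), 0.25 with no filter (adjusted p = 0.00183, edgeR) and 0.38 without ZFX12_13 replicate 3 (adjusted p = 0.00791, edgeR). In the other 12 the adjusted p ran from 0.0516 without wtZFX replicate 1 (edgeR) to 0.299 with DESeq2. The part of this ZFX difference in the results was not tested. ZNF711, whose locus keeps reads in these cells, had 258, 255 and 247 CPM (gene counts scaled to a common library total) in ZFX12_13 libraries, against 247, 274 and 261 in wtZFX libraries and 316, 306 and 308 with pCMV6, and its ranges overlapped (log2 change -0.03, SE 0.06, adjusted p = 0.764, same test). Replicate 1 of ZFX12_13 lay apart from the other libraries on the second principal component, which held 16.7% of the variance, at 21.4 against -8.72 and -15.5 for replicates 2 and 3. In that library genes whose longest transcript is under 2 kb ran 0.15 above the other ZFX12_13 libraries (median log2 difference), and those of 10 kb or more ran 0.22 below them. Some of the results that rest on it are also given without it. Of 15 marker genes of 293T cells 13 had enough reads for the test, LIN28B, CDH2, VIM and HOXA9 among them. KRT8 and NEFM rose and PAX2 fell, beside 7.88% and 9.2% of all tested genes called higher and lower. NEFM shares 38.9% of its exon length with AF106564.1. Its call was lost without wtZFX replicate 3 and with both stranded count columns summed in place of the unstranded one.

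Between ZFX12_13 and wtZFX 3175 of 18594 tested genes were called at an adjusted p of 0.05, which is 17.1%. Of these, 1465 were higher (7.88% of all tested) and 1710 lower (9.2%) with ZFX12_13, so changes ran in both directions. Most were small: the median absolute log2 change of called genes was 0.44, and 1110 genes (5.97%) were called with a change of at least 1.5-fold, of which 526 were higher and 584 lower. At 2-fold or more, 252 genes were higher and 253 lower. The median log2 change of all tested genes was 0.01. CPM did not overlap between the groups in 6089 genes (32.7%). Leaving out wtZFX replicate 1 lowered the number of genes called higher to 940. Without ZFX12_13 replicate 1 the test called 1921 genes higher (9.97%) and 2178 lower (11.3%) of 19271, and 2941 of the 3175 calls were kept. Of 14378 protein-coding genes 8.63% were higher and 11% lower, against 5.74% and 3.07% of 3030 long non-coding RNA genes. In bulk samples of this kind, fewer cells of a type and less RNA per cell cannot be told apart.

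**Figure D1:**
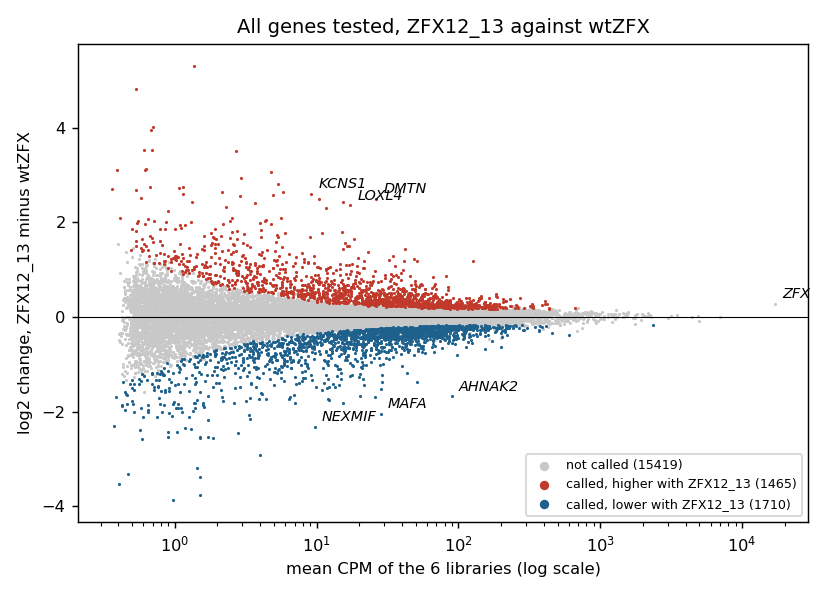
Log2 change of ZFX12_13 minus wtZFX (vertical axis) against the mean CPM of the 6 libraries on a log axis, 1 point per tested gene. Called genes, 1465 higher and 1710 lower, lie on both sides of 0, and ZFX, at the far right, was not called.

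Among called protein-coding genes with a mean of 5 CPM or more and no overlap between the groups, the 12 with the largest falls were 3.15- to 4.99-fold lower with ZFX12_13 than with wtZFX. They included the transcription factors MAFA, FOXL1 and FOXC2, several genes of cell surface and secreted proteins, and the giant scaffold protein AHNAK2. NEXMIF, a gene on the X chromosome needed for neurite growth, had 3.45, 3.31 and 2.80 CPM in ZFX12_13 libraries, against 17.7, 15.9 and 15 in wtZFX libraries and 2.98, 2.51 and 2.29 with pCMV6. Every ZFX12_13 library lay far below every wtZFX library and in or just above the range of pCMV6. The gene fell 4.99-fold (log2 change -2.32, SE 0.13, adjusted p = 1.12e-09, edgeR). MAFA, on chromosome 8, encodes an activator of insulin transcription in pancreatic beta cells. It had 11.7, 10.3 and 10.7 CPM in ZFX12_13 libraries, against 45.2, 45.7 and 46.0 in wtZFX libraries and 5.69, 5.69 and 5.67 with pCMV6. The 3 groups stood clear of each other, with ZFX12_13 in between, and the fall was 4.12-fold (log2 change -2.04, SE 0.08, adjusted p = 1.91e-11, edgeR).

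Among the genes of surface and secreted proteins, NGFR, the low-affinity neurotrophin receptor, had 5.14, 5.28 and 6.27 CPM in ZFX12_13 libraries, against 19, 19.3 and 18.7 in wtZFX libraries and 5.18, 5.21 and 5.82 with pCMV6. ZFX12_13 and pCMV6 libraries covered the same range, while wtZFX libraries were all higher. NGFR fell 3.36-fold (log2 change -1.75, SE 0.11, adjusted p = 3.98e-09, edgeR); 27.1% of its exon length is shared with other annotated genes, whose reads could not be told apart by strand. IGFBP4, a secreted protein that binds insulin-like growth factors, had 5.90, 5.69 and 4.99 CPM in ZFX12_13 libraries, against 18.1, 18.9 and 18.8 in wtZFX libraries and 4.72, 4.55 and 4.28 with pCMV6. Again the ZFX12_13 libraries lay near the empty vector and well below wtZFX, with a 3.32-fold fall (log2 change -1.73, SE 0.11, adjusted p = 3.98e-09, edgeR). RTN4RL1, a receptor of the Nogo receptor family anchored in the membrane, had 2.51, 3.42 and 3.23 CPM in ZFX12_13 libraries, against 13.6, 8.6 and 10.7 in wtZFX libraries. Its wtZFX libraries were uneven, yet the lowest was above every ZFX12_13 library (log2 change -1.82, SE 0.18, adjusted p = 7.91e-07, edgeR). MMP17, a membrane-bound metalloprotease, had 10.3, 9.23 and 9.19 CPM in ZFX12_13 libraries, against 28.7, 31.1 and 32.3 in wtZFX libraries and 4.82, 4.31 and 3.93 with pCMV6. No libraries of the 3 groups overlapped, and the fall was 3.17-fold (log2 change -1.66, SE 0.09, adjusted p = 1.12e-09, edgeR).

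SLC22A31, of a family of organic ion transporters, had 12.1, 10.3 and 13.6 CPM in ZFX12_13 libraries, against 38.9, 40.5 and 38.9 in wtZFX libraries and 2.16, 2.80 and 3.43 with pCMV6. ZFX12_13 libraries lay between both other groups without touching either, 3.24-fold below wtZFX (log2 change -1.70, SE 0.09, adjusted p = 1.12e-09, edgeR). ATP2B3, a calcium pump of the plasma membrane, had 2.69, 3.37 and 3.11 CPM in ZFX12_13 libraries, against 11.3, 8.70 and 9.86 in wtZFX libraries and 1.28, 0.474 and 0.846 with pCMV6. The order was again pCMV6 lowest, ZFX12_13 in between and wtZFX highest (log2 change of ZFX12_13 minus wtZFX -1.68, SE 0.15, adjusted p = 3.38e-07, edgeR). AHNAK2 had 32.8, 48.8 and 46.3 CPM in ZFX12_13 libraries, against 145, 141 and 127 in wtZFX libraries and 15.8, 15.7 and 15.1 with pCMV6. Replicate 1 of ZFX12_13 was the lowest of its group, and all 3 were below every wtZFX library (log2 change -1.67, SE 0.12, adjusted p = 1.74e-06, edgeR). TMEM130, which encodes a membrane protein, had 3.16, 2.15 and 3.41 CPM in ZFX12_13 libraries, against 10.0, 9.69 and 9.78 in wtZFX libraries. The groups did not overlap and the fall was 3.34-fold (log2 change -1.74, SE 0.16, adjusted p = 3.38e-07, edgeR).

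**Figure D2:**
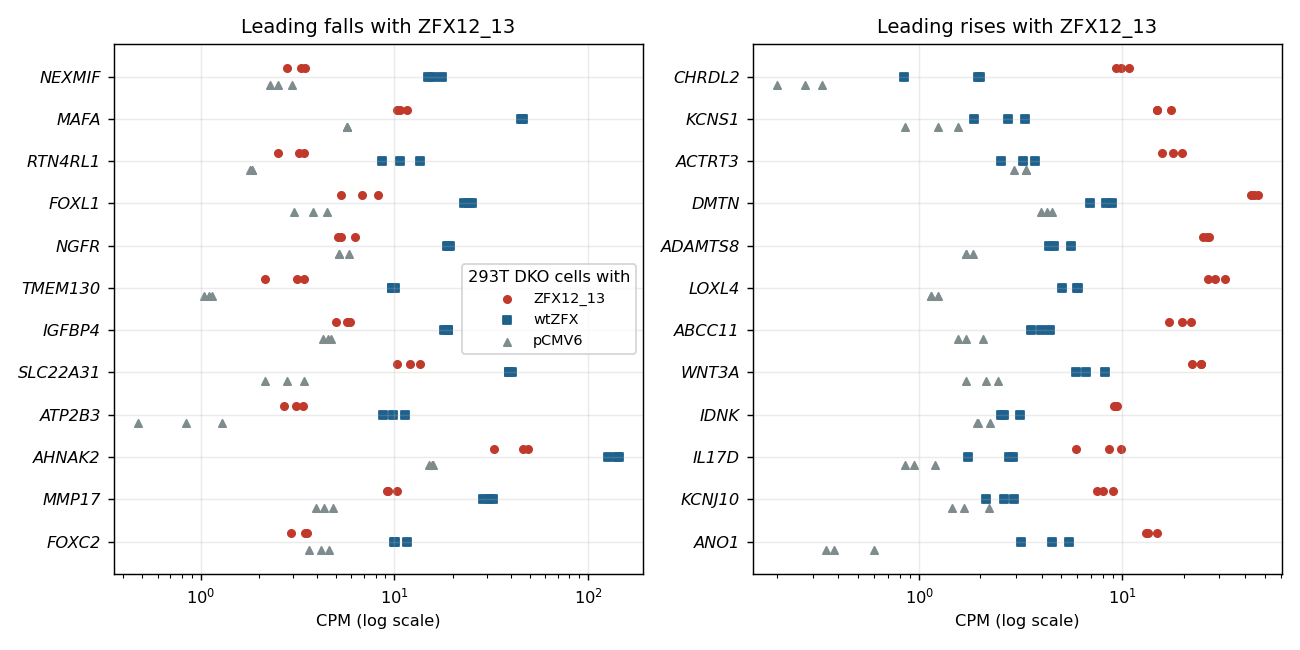
CPM of every library on a log axis for the 12 leading falls (left) and the 12 leading rises (right), with circles for ZFX12_13, squares for wtZFX and triangles for pCMV6. In each leading fall the 3 wtZFX libraries lie right of the 3 ZFX12_13 libraries, and in each leading rise the 3 ZFX12_13 libraries lie right of the 3 wtZFX libraries.

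The 12 leading rises were 3.21- to 6.25-fold higher with ZFX12_13 than with wtZFX. They held 3 ion channel genes, 3 genes of secreted signalling proteins or their antagonists, and 2 genes of enzymes that act on extracellular matrix. DMTN, on chromosome 8, encodes dematin, an actin-bundling protein of the membrane skeleton. It had 46.6, 43.1 and 44.6 CPM in ZFX12_13 libraries, against 8.84, 6.96 and 8.33 in wtZFX libraries and 4.27, 4.50 and 3.98 with pCMV6. All ZFX12_13 libraries were far above all others (5.64-fold over wtZFX, log2 change 2.49, SE 0.09, adjusted p = 8.05e-12, edgeR). ACTRT3, an actin-related protein known from testis, had 19.5, 17.8 and 15.6 CPM in ZFX12_13 libraries, against 3.72, 2.54 and 3.23 in wtZFX libraries and 3.35, 2.94 and 3.33 with pCMV6. Here wtZFX and pCMV6 covered the same range and only the ZFX12_13 libraries were high (5.64-fold, log2 change 2.50, SE 0.14, adjusted p = 1.12e-09, edgeR). IDNK, a gluconokinase, had 9.41, 9.29 and 9.07 CPM in ZFX12_13 libraries, against 2.53, 3.13 and 2.61 in wtZFX libraries and 1.93, 1.94 and 2.24 with pCMV6. The ZFX12_13 libraries were high and close together, with wtZFX and pCMV6 libraries low (3.40-fold, log2 change 1.77, SE 0.15, adjusted p = 1.13e-07, edgeR).

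The matrix enzymes were LOXL4 and ADAMTS8. LOXL4, of the lysyl oxidase family that cross-links collagen and elastin, had 28.6, 32.0 and 26.2 CPM in ZFX12_13 libraries, against 5.06, 6.02 and 5.97 in wtZFX libraries and 1.24, 1.14 and 1.14 with pCMV6. Each group was clear of the next, with ZFX12_13 highest (5.16-fold over wtZFX, log2 change 2.37, SE 0.11, adjusted p = 1.00e-10, edgeR). ADAMTS8, a secreted metalloprotease, had 25, 26.7 and 26.1 CPM in ZFX12_13 libraries, against 4.37, 4.62 and 5.59 in wtZFX libraries and 1.83, 1.71 and 1.69 with pCMV6. The same order held without overlap (5.37-fold, log2 change 2.42, SE 0.11, adjusted p = 8.85e-11, edgeR). Of the signalling genes, CHRDL2, a secreted antagonist of bone morphogenetic proteins, had 10.8, 9.81 and 9.32 CPM in ZFX12_13 libraries, against 1.99, 0.845 and 1.95 in wtZFX libraries and 0.275, 0.332 and 0.199 with pCMV6. It was the largest fold of the 24 leading genes (6.25-fold, log2 change 2.64, SE 0.20, adjusted p = 4.47e-08, edgeR), on low wtZFX levels. WNT3A, a WNT ligand of the canonical pathway, had 24.3, 21.9 and 24.2 CPM in ZFX12_13 libraries, against 8.19, 5.92 and 6.63 in wtZFX libraries and 2.43, 1.71 and 2.14 with pCMV6. No libraries of the 3 groups overlapped (3.45-fold, log2 change 1.78, SE 0.11, adjusted p = 3.90e-09, edgeR).

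The channel genes were KCNS1, KCNJ10 and ANO1. KCNS1, a modulatory subunit of voltage-gated potassium channels, had 14.7, 17.4 and 14.7 CPM in ZFX12_13 libraries, against 2.73, 3.33 and 1.86 in wtZFX libraries and 1.24, 0.853 and 1.54 with pCMV6. The ZFX12_13 libraries were high and apart from both other groups (6.07-fold, log2 change 2.60, SE 0.16, adjusted p = 3.28e-09, edgeR). KCNJ10, an inwardly rectifying potassium channel, had 8.06, 9.0 and 7.49 CPM in ZFX12_13 libraries, against 2.93, 2.14 and 2.61 in wtZFX libraries and 2.20, 1.66 and 1.44 with pCMV6. Here wtZFX and pCMV6 libraries overlapped at a low level (3.24-fold over wtZFX, log2 change 1.69, SE 0.16, adjusted p = 4.91e-07, edgeR). ANO1, a chloride channel opened by calcium, had 13.0, 14.7 and 13.4 CPM in ZFX12_13 libraries, against 4.52, 5.47 and 3.15 in wtZFX libraries and 0.596, 0.379 and 0.348 with pCMV6. The 3 groups formed 3 steps (3.21-fold, log2 change 1.68, SE 0.15, adjusted p = 3.67e-07, edgeR). The log2 change was 2.31 for the transporter gene ABCC11 and 1.72 for the cytokine gene IL17D, which shares 39.0% of its exon length with AL161772.1. With both stranded count columns summed in place of the unstranded one, which keeps reads where genes on opposite strands overlap, these became 1.20 and 0.68, still past the threshold.

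The comparisons with pCMV6 share libraries with the one above, so their values only stand beside it. Leading falls were picked for high wtZFX and leading rises for high ZFX12_13. Calls of the picked group above pCMV6 are therefore partly set by that choice and cannot be read as an excess over all tested genes. wtZFX was called above pCMV6 in 12 of the 12 leading falls and ZFX12_13 in 8 of them, where 23.2% and 20.9% of 19376 tested genes were called higher. The exceptions for ZFX12_13 minus pCMV6 were NEXMIF (log2 change 0.31, adjusted p = 0.161), IGFBP4 (0.31, adjusted p = 0.061), NGFR (0.06, adjusted p = 0.751) and FOXC2 (-0.30, adjusted p = 0.151). In the 12 leading rises ZFX12_13 was called above pCMV6 in 12 and wtZFX in 10, the exceptions for wtZFX minus pCMV6 being ACTRT3 (-0.02, adjusted p = 0.946) and IDNK (0.44, adjusted p = 0.0503). All of these come from edgeR's quasi-likelihood test with Benjamini-Hochberg adjustment.

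Both forkhead genes among the leading falls, FOXL1 and FOXC2, are neighbours on chromosome 16. The neighbourhood was looked at after their values were seen. On GRCh38 the 107.6 kb from 86474529 to 86582160 hold 7 tested genes, and the RNA at its far end moved the other way. FENDRR, a long non-coding RNA on the minus strand that starts beside the forkhead gene FOXF1, had 17.4, 16.9 and 16 CPM in ZFX12_13 libraries, against 5.26, 5.12 and 4.48 in wtZFX libraries and 2.48, 1.80 and 1.94 with pCMV6. It rose 3.44-fold without overlap (log2 change 1.78, SE 0.11, adjusted p = 3.98e-09, edgeR). FOXF1, read from the opposite strand 1.43 kb away, had 12.5, 12.9 and 13.5 CPM in ZFX12_13 libraries, against 11.3, 11.9 and 11.2 in wtZFX libraries and 6.19, 5.83 and 7.71 with pCMV6. The ZFX12_13 libraries were all slightly above the wtZFX libraries, and the difference was not called (log2 change 0.20, SE 0.10, adjusted p = 0.207, edgeR). FOXC2, a regulator of lymphatic and cardiovascular development, had 2.92, 3.54 and 3.47 CPM in ZFX12_13 libraries, against 9.98, 11.7 and 10.1 in wtZFX libraries and 4.17, 3.65 and 4.63 with pCMV6. Its ZFX12_13 libraries lay below the empty vector, and it fell 3.15-fold (log2 change -1.65, SE 0.14, adjusted p = 1.97e-07, edgeR). FOXL1, a forkhead factor of the gut mesenchyme, had 6.78, 5.28 and 8.22 CPM in ZFX12_13 libraries, against 25.1, 24.4 and 22.8 in wtZFX libraries and 4.49, 3.79 and 3.04 with pCMV6. ZFX12_13 libraries were all above the empty vector (log2 change of ZFX12_13 minus pCMV6 0.85, adjusted p = 0.000135, edgeR). They were 3.52-fold below wtZFX (log2 change -1.82, SE 0.12, adjusted p = 8.10e-09, edgeR). MTHFSD, which lies between FOXF1 and FOXC2, had 33.7, 34.8 and 35.2 CPM in ZFX12_13 libraries, against 37.3, 38.3 and 34.1 in wtZFX libraries. These overlapped and no difference was called (log2 change -0.06, SE 0.07, adjusted p = 0.645, edgeR).

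**Figure D3:**
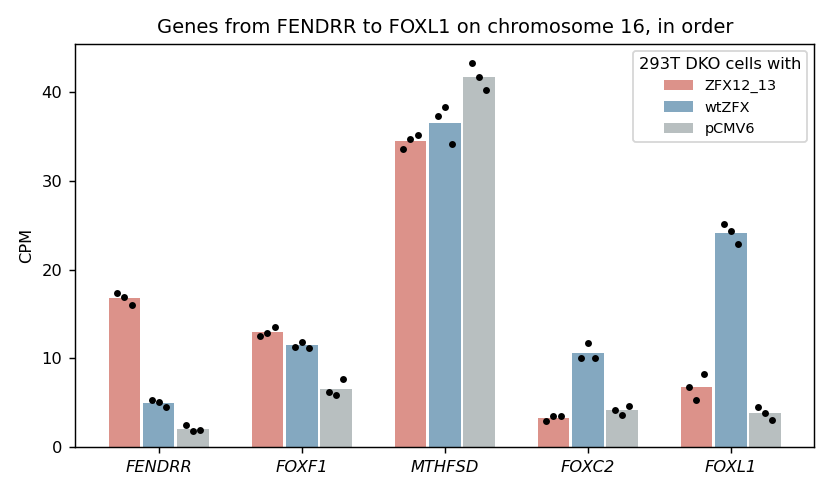
CPM of 5 genes in their order along chromosome 16, with a bar for the mean of 3 libraries and points for the libraries, for ZFX12_13, wtZFX and pCMV6. FENDRR was highest with ZFX12_13, FOXC2 and FOXL1 were highest with wtZFX, and MTHFSD was not called.

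Pathways and cell functions were followed with 41 gene lists, whose 1241 tested genes held 95 called higher and 85 called lower. Lists are described by their counts beside the 7.88% of all tested genes called higher and the 9.2% called lower. Among protein-coding genes alone these shares were 8.63% and 11%. The share of members called lower was largest for Notch pathway genes (9 of 23), Golgi N-glycan processing genes (7 of 21) and extracellular matrix genes (11 of 40), and the share called higher for p53 target genes (10 of 24) and BCL2 family genes (7 of 17). Besides ZFX and ZNF711 themselves, 4 lists had no member called in the edgeR fit of the 6 libraries: 79 cytosolic ribosomal protein genes, 37 spliceosome genes, 29 genes of Pol II pausing and elongation, and 13 of the MYC network. At an unadjusted p of 0.05 these lists held 6, 8, 4 and 2 genes, and DESeq2 called 1, a pausing gene that was lower. With all 9 libraries in the edgeR fit 2 ribosomal, 3 spliceosome, 1 pausing and 1 MYC network gene were called higher. In that fit 2 pausing genes and 1 spliceosome gene were lower. Other fits of the same 6 libraries gave calls as well: with no filter 2 pausing and 2 spliceosome genes were lower. The absence of calls thus belongs to the settings of the main fit.

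**Figure D4:**
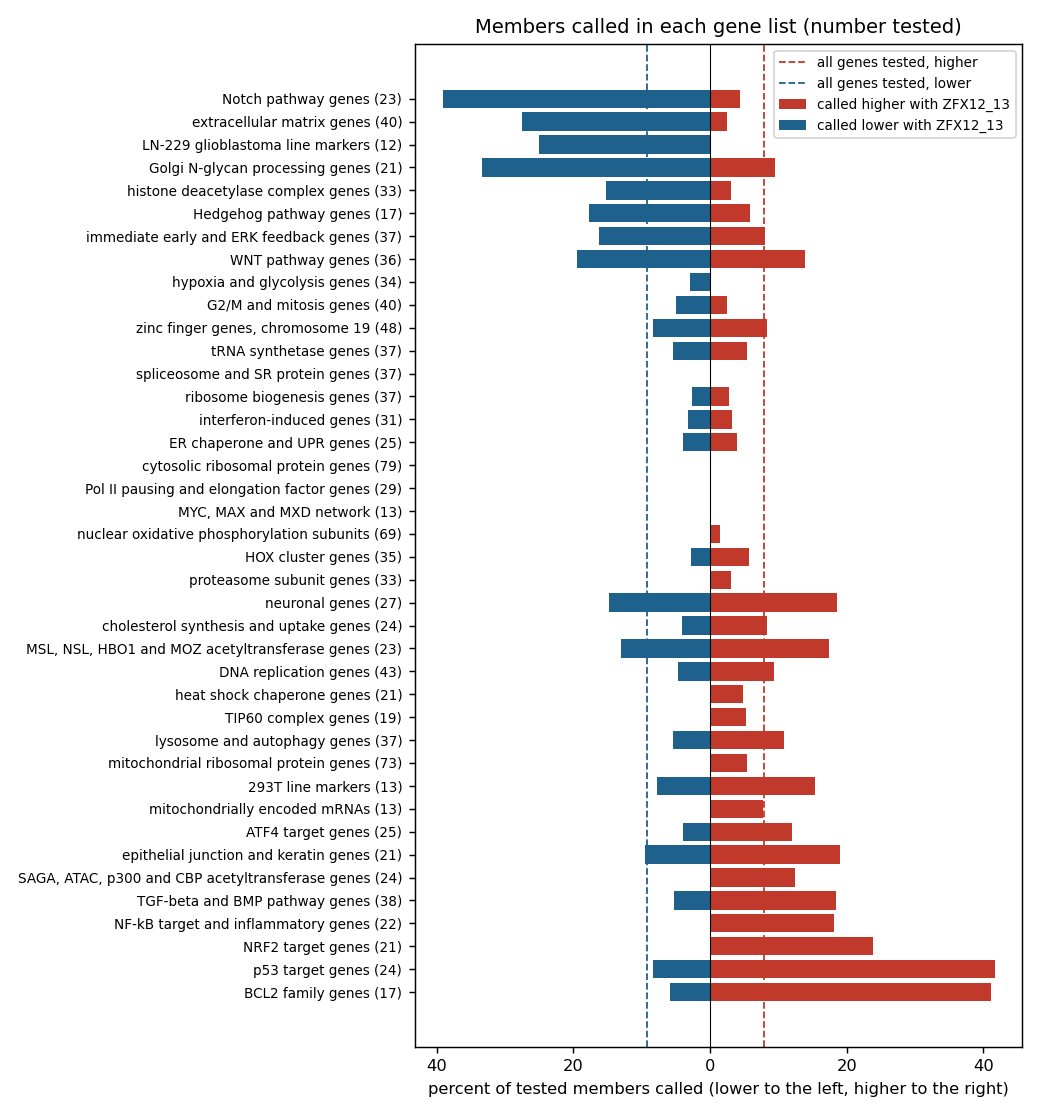
Percent of tested members called lower (bars to the left) and higher (bars to the right) with ZFX12_13 in each gene list, with the number tested in parentheses. The dashed lines mark all tested genes, 9.2% lower and 7.88% higher, and the Notch, Golgi and matrix lists extend furthest to the left, the p53 and BCL2 lists furthest to the right.

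Notch signalling passes between touching cells: ligands of the Delta and Jagged families bind NOTCH receptors, Fringe enzymes add sugars to the receptor that set which ligand it answers, and the cleaved receptor turns on HES and HEY genes. Of 23 tested pathway genes 9 were called lower and 1 higher, and with any single library left out 9 were lower and 1 or 2 higher; the median log2 change over all 23 was -0.07. Ligands, receptor, Fringe enzymes and targets were all among the 9. The ligand JAG1 had 13.0, 13.3 and 13.4 CPM in ZFX12_13 libraries, against 29, 28.1 and 26.3 in wtZFX libraries and 10.9, 10.9 and 10.8 with pCMV6. ZFX12_13 libraries lay close above the empty vector and 2.07-fold below wtZFX (log2 change -1.05, SE 0.09, adjusted p = 1.07e-07, edgeR). The ligand DLL1 had 14.7, 14.7 and 17.9 CPM in ZFX12_13 libraries, against 26.2, 27.6 and 27.2 in wtZFX libraries and 9.26, 9.52 and 9.50 with pCMV6. It stood between both other groups, 1.69-fold below wtZFX (log2 change -0.76, SE 0.09, adjusted p = 1.15e-05, edgeR). The receptor NOTCH1 had 47.0, 51.5 and 58.7 CPM in ZFX12_13 libraries, against 82.0, 79.7 and 75.7 in wtZFX libraries and 31.2, 31.1 and 31.9 with pCMV6. The groups did not overlap (log2 change -0.57, SE 0.08, adjusted p = 2.57e-05, edgeR).

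Of the Fringe enzymes, LFNG had 1.34, 1.10 and 1.34 CPM in ZFX12_13 libraries, against 5.26, 5.92 and 4.93 in wtZFX libraries and 1.74, 1.99 and 1.39 with pCMV6. Its ZFX12_13 libraries were 4.18-fold below wtZFX, at a low level throughout (log2 change -2.06, SE 0.20, adjusted p = 5.93e-07, edgeR). They were also below the empty vector, a difference that was not called (log2 change of ZFX12_13 minus pCMV6 -0.42, adjusted p = 0.175, edgeR). MFNG had 2.51, 2.38 and 2.44 CPM in ZFX12_13 libraries, against 4.47, 4.92 and 4.56 in wtZFX libraries and 0.550, 0.663 and 0.995 with pCMV6. Here ZFX12_13 stood above the empty vector and below wtZFX (log2 change -0.91, SE 0.17, adjusted p = 0.000744, edgeR). HES6, a basic helix-loop-helix factor of the HES family, had 35.5, 33.3 and 32.2 CPM in ZFX12_13 libraries, against 48.2, 53.2 and 52.1 in wtZFX libraries and 26.2, 25.3 and 26.1 with pCMV6. No groups overlapped (log2 change -0.59, SE 0.07, adjusted p = 1.49e-05, edgeR). The target genes HEYL (log2 change -0.42) and NRARP (-0.40) and the ligand JAG2 (-0.28) were the other falls. DTX1, a ubiquitin ligase of the pathway, was the rise, with 17.2, 18.9 and 19 CPM in ZFX12_13 libraries, against 13.1, 13.0 and 13.6 in wtZFX libraries and 1.61, 1.75 and 1.14 with pCMV6. It was low with the empty vector and highest with ZFX12_13 (log2 change 0.49, SE 0.09, adjusted p = 0.000844, edgeR).

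Extracellular matrix genes gave 11 falls and 1 rise of 40 tested, with a median log2 change of -0.16. Their summed CPM ran from 2182 to 2605 in ZFX12_13 libraries, against 2741 to 2952 in wtZFX libraries. COL6A1, a chain of the microfibrillar collagen VI, had 101, 99.4 and 101 CPM in ZFX12_13 libraries, against 148, 152 and 148 in wtZFX libraries and 42.9, 43.5 and 42.3 with pCMV6. It stood between both other groups with little spread (1.47-fold below wtZFX, log2 change -0.55, SE 0.06, adjusted p = 1.31e-06, edgeR). HSPG2, which encodes perlecan, a heparan sulfate proteoglycan of basement membranes, had 12.7, 23.3 and 22.9 CPM in ZFX12_13 libraries, against 40.9, 39.5 and 38.0 in wtZFX libraries and 11.1, 8.39 and 10.7 with pCMV6. ZFX12_13 replicate 1, the library in which long transcripts ran low, was far below the other ZFX12_13 libraries, and all were below wtZFX (log2 change -0.99, SE 0.18, adjusted p = 0.00485, edgeR). Without replicate 1 the log2 change of HSPG2 was -0.75. LAMA3, a laminin chain, had 119.6, 171 and 177 CPM in ZFX12_13 libraries, against 253, 243 and 235 in wtZFX libraries and 183, 179 and 187 with pCMV6. Replicate 1 was again the lowest, replicates 2 and 3 were just under the empty vector, and wtZFX libraries were highest (log2 change -0.63, SE 0.12, adjusted p = 0.00644, edgeR; -0.47 without replicate 1).

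The other matrix falls were the collagen chains COL5A1 (log2 change -0.54), COL4A2 (-0.45), COL2A1 (-0.44) and COL18A1 (-0.32), the fibrillins FBN1 (-0.43) and FBN2 (-0.40), the basement membrane protein NID1 (-0.39) and the cross-linking enzyme LOX (-0.27). COL5A1 had 10.1, 11.2 and 11.4 CPM in ZFX12_13 libraries, against 16.9, 15.6 and 15.8 in wtZFX libraries. Its groups did not overlap, and replicate 1 was close to the other ZFX12_13 libraries. The log2 change of FBN2 shrank to -0.26 without ZFX12_13 replicate 1, FBN1 missed the threshold without wtZFX replicate 1, and LOX missed it without ZFX12_13 replicate 2, wtZFX replicate 2 or wtZFX replicate 3. LOXL2, another lysyl oxidase, was the rise, with 25.2, 25.7 and 26.9 CPM in ZFX12_13 libraries, against 20.4, 20.4 and 20.2 in wtZFX libraries and 18.8, 17.5 and 18.2 with pCMV6. The ZFX12_13 libraries were all above the others (log2 change 0.37, SE 0.08, adjusted p = 0.00263, edgeR). Without ZFX12_13 replicate 1 the list held 11 falls and 4 rises. LOXL4 and ADAMTS8, described above among the leading rises, are not on this list, so its counts leave out those rises of matrix enzymes.

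The transcription factor p53 turns on genes that halt the cell cycle or promote cell death. Of 24 of its known targets 10 were called higher and 2 lower with ZFX12_13, at a median log2 change of 0.07, and the number higher dropped to 4 without wtZFX replicate 1 or 2, to 5 without wtZFX replicate 3 and to 6 with no filter on low counts. PHLDA3, an inhibitor of the kinase AKT, had 33.9, 29.4 and 28.3 CPM in ZFX12_13 libraries, against 18.0, 20.03 and 18.2 in wtZFX libraries and 19.5, 21.1 and 21.0 with pCMV6. The ZFX12_13 libraries were all above both other groups (log2 change 0.73, SE 0.09, adjusted p = 1.24e-05, edgeR). BBC3, which encodes the death-promoting protein PUMA, had 38.8, 34.9 and 36.4 CPM in ZFX12_13 libraries, against 23.6, 29.9 and 26.3 in wtZFX libraries and 33.7, 30.5 and 35.8 with pCMV6. Here the wtZFX libraries were the low ones, and ZFX12_13 and pCMV6 overlapped (log2 change of ZFX12_13 minus wtZFX 0.48, SE 0.09, adjusted p = 0.000676, edgeR). CDKN1A, the p21 inhibitor of cyclin-dependent kinases, had 67.1, 61.5 and 66.2 CPM in ZFX12_13 libraries, against 53.5, 59.1 and 56.9 in wtZFX libraries and 59.8, 61.4 and 64.8 with pCMV6. It rose by a small amount (log2 change 0.22, SE 0.07, adjusted p = 0.0296, edgeR), a call lost without ZFX12_13 replicate 3, wtZFX replicate 1 or wtZFX replicate 3. MDM2, the ubiquitin ligase that limits p53, had 222, 216 and 195 CPM in ZFX12_13 libraries, against 185, 179 and 192 in wtZFX libraries and 203, 217 and 203 with pCMV6. Its log2 change of 0.21 (SE 0.06, adjusted p = 0.0258, edgeR) was likewise no longer called without ZFX12_13 replicate 2 or any 1 of the wtZFX libraries. The other rises were TIGAR, FAS, ZMAT3, BAX, TP53INP1 and DDB2, and the falls were PLK3 (log2 change -0.34) and XPC (-0.32). Unlike PHLDA3, TIGAR and FAS stood near the empty vector with ZFX12_13 (log2 change of ZFX12_13 minus pCMV6 0.03 and -0.02). Without ZFX12_13 replicate 1 the list held 8 rises, and TIGAR and FAS were no longer called (adjusted p = 0.0707 and 0.0524, edgeR). TIGAR shares 45.6% of its exon length with other annotated genes. Whether p53 activity differed was not tested.

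BCL2 family proteins set whether mitochondria release death signals, with members on both sides. Of 17 tested genes 7 were called higher and 1 lower, against 4 and 1 with DESeq2; the number higher was 2 without wtZFX replicate 1, 3 without wtZFX replicate 2 and 4 without ZFX12_13 replicate 2. The death-promoting BIK had 3.68, 3.66 and 3.59 CPM in ZFX12_13 libraries, against 2.13, 2.09 and 1.62 in wtZFX libraries and 1.15, 1.52 and 0.896 with pCMV6. All ZFX12_13 libraries were above all others, at a low level (log2 change 0.93, SE 0.19, adjusted p = 0.00187, edgeR). BBC3, BAX, BID and HRK, which also promote death, and the protective BCL2 (log2 change 0.33) and BCL2L1 (0.34) were the other rises, and the death-promoting BCL2L11 (-0.28) was the fall. The list's name thus covers rises on both sides, and 42.97% of the exon length of BCL2L1 is shared with the antisense gene ABALON.

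**Figure D5:**
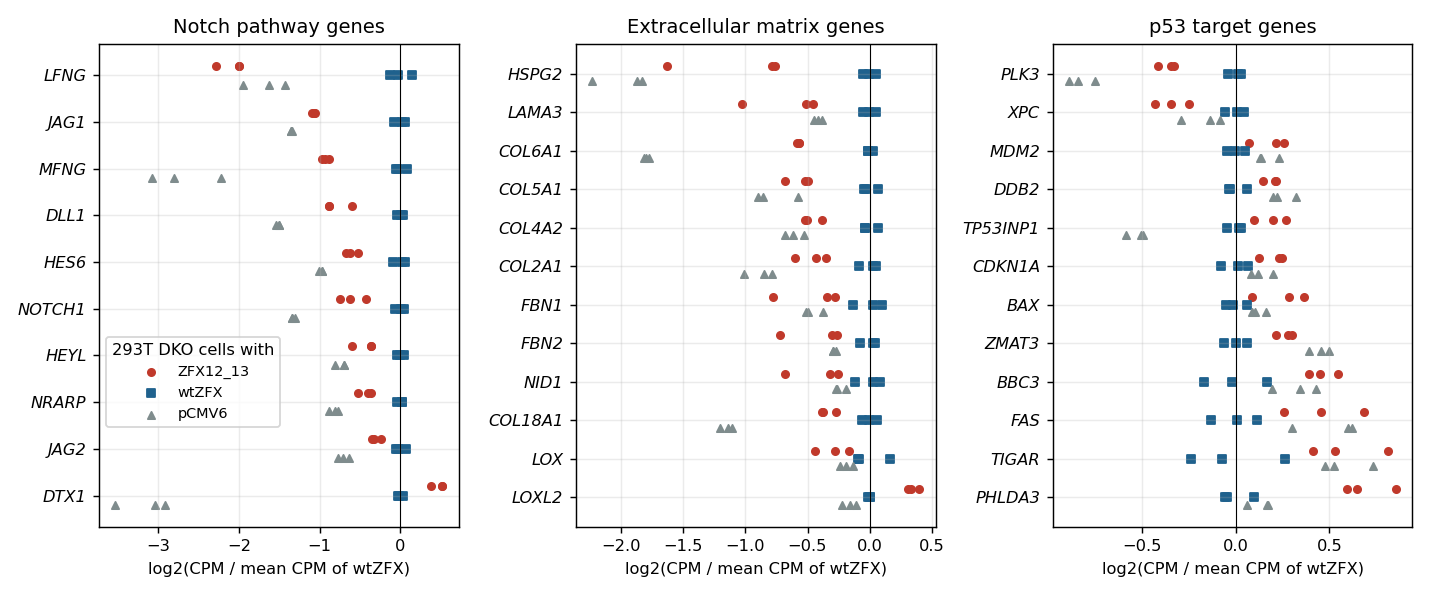
Called members of the Notch, extracellular matrix and p53 lists, as log2 of each library's CPM over the mean CPM of wtZFX, with circles for ZFX12_13, squares for wtZFX and triangles for pCMV6. In the matrix panel the lowest circle of HSPG2, LAMA3, NID1 and FBN1 is ZFX12_13 replicate 1, with 12.7, 119.6, 156 and 49.8 CPM.

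Golgi enzymes that trim and extend N-linked sugar chains gave 7 falls and 2 rises of 21, with a median log2 change of 0.02. MGAT3, which adds the bisecting sugar, had 21.6, 21.7 and 22.2 CPM in ZFX12_13 libraries, against 31.5, 33.8 and 31.6 in wtZFX libraries and 16.3, 17.7 and 14.8 with pCMV6. ZFX12_13 lay between both other groups (log2 change -0.54, SE 0.08, adjusted p = 6.16e-05, edgeR). The sialyltransferase ST3GAL4 had 20.3, 19.6 and 20.03 CPM in ZFX12_13 libraries, against 27.2, 28.6 and 28.1 in wtZFX libraries and 16.4, 14.5 and 14.7 with pCMV6, in the same order (log2 change -0.47, SE 0.08, adjusted p = 0.000341, edgeR). MAN1A1 (log2 change -0.36), MGAT5 (-0.35), FUT8 (-0.32), B4GALT1 (-0.30) and MAN2A1 (-0.21) fell as well. The call of MAN2A1 was lost without ZFX12_13 replicate 1 or any 1 of the wtZFX libraries. MGAT4B, a branching enzyme, rose, with 224, 199.9 and 209 CPM in ZFX12_13 libraries, against 156, 155 and 160.5 in wtZFX libraries and 141, 134 and 138 with pCMV6. All ZFX12_13 libraries were above all wtZFX libraries (log2 change 0.44, SE 0.06, adjusted p = 2.94e-05, edgeR), and B4GALT4 rose too (0.39). Without ZFX12_13 replicate 1 the list held 6 falls and 4 rises. The number of falls was 5 without wtZFX replicate 1 and 9 without ZFX12_13 replicate 3.

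Genes of the WNT pathway, in which secreted ligands act through Frizzled receptors, moved both ways, with 5 higher and 7 lower of 36. WNT3A, described above among the leading rises, is not on the list and not in these counts. WNT11, a ligand, had 9.64, 9.23 and 8.22 CPM in ZFX12_13 libraries, against 20.4, 19.1 and 19 in wtZFX libraries and 6.93, 7.67 and 7.17 with pCMV6. It fell 2.13-fold to near the empty vector (log2 change -1.09, SE 0.10, adjusted p = 3.96e-07, edgeR). WNT7B, another ligand, had 11.5, 14.0 and 13.6 CPM in ZFX12_13 libraries, against 25.3, 22.9 and 25.4 in wtZFX libraries and 1.10, 1.80 and 1.84 with pCMV6. It too fell, yet stayed far above the empty vector (log2 change -0.89, SE 0.10, adjusted p = 2.57e-06, edgeR). LGR5, a receptor that raises WNT signalling, fell (log2 change -0.66), as did FZD8, FZD5, FZD3 and TCF7L1. DKK3 (log2 change 0.51), WNT5B, PORCN, WNT3 and TCF7L2 rose. The call of WNT5B was lost without ZFX12_13 replicate 1 or 2, or wtZFX replicate 2 or 3. The number higher was 1 without wtZFX replicate 3, 2 without wtZFX replicate 2 and 3 without ZFX12_13 replicate 2 or 3, and the number lower was 4 without wtZFX replicate 1. Of 17 Hedgehog pathway genes 3 fell and 1 rose. The transcription factor GLI2 (log2 change -0.37) and the co-receptor BOC (-0.37) fell and the signal transducer SMO (0.25) rose. The call of GLI2 was lost without wtZFX replicate 1, that of BOC without wtZFX replicate 3, and that of SMO without either of these or ZFX12_13 replicate 3.

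TGF-beta and BMP pathway genes gave 7 rises and 2 falls of 38, with 6 to 8 rises when any single library was left out. INHBB, a subunit of activin and inhibin, had 26.1, 24.3 and 24.2 CPM in ZFX12_13 libraries, against 14.8, 14.8 and 16 in wtZFX libraries and 3.30, 2.98 and 3.43 with pCMV6. The groups formed 3 steps with ZFX12_13 on top (1.66-fold over wtZFX, log2 change 0.73, SE 0.09, adjusted p = 7.62e-06, edgeR). LTBP3, which holds latent TGF-beta, had 81.5, 78.8 and 84.1 CPM in ZFX12_13 libraries, against 48.8, 55 and 53.7 in wtZFX libraries and 30.9, 32.4 and 29.1 with pCMV6. The order was the same (log2 change 0.65, SE 0.07, adjusted p = 1.56e-06, edgeR). GDF15, a stress-induced member of the family, had 6.25, 8.13 and 5.72 CPM in ZFX12_13 libraries, against 3.38, 3.88 and 3.69 in wtZFX libraries and 3.21, 3.27 and 3.98 with pCMV6. Here wtZFX and pCMV6 overlapped and ZFX12_13 was high (log2 change 0.90, SE 0.16, adjusted p = 0.000586, edgeR). INHBE, GDF11, SMAD2 and SKIL rose, and LTBP1 (log2 change -0.39) and TGFBR3 (-0.21) fell. The call of TGFBR3 was lost with any 1 library left out, with DESeq2 and with a replicate block.

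Immediate early genes and feedback inhibitors of ERK signalling gave 3 rises and 6 falls of 37, with 2 falls without wtZFX replicate 2 or 3 and 3 without ZFX12_13 replicate 2. SPRY4, a feedback inhibitor of receptor tyrosine kinases, had 1.34, 1.51 and 0.548 CPM in ZFX12_13 libraries, against 3.97, 4.92 and 3.44 in wtZFX libraries and 1.38, 0.995 and 1.24 with pCMV6. ZFX12_13 and pCMV6 libraries overlapped at a very low level and wtZFX was higher (log2 change -1.82, SE 0.27, adjusted p = 7.99e-05, edgeR). DUSP4, a phosphatase of ERK, had 3.8, 3.02 and 2.98 CPM in ZFX12_13 libraries, against 7.45, 6.02 and 7.42 in wtZFX libraries and 3.03, 4.07 and 3.88 with pCMV6. The same order held (log2 change -1.07, SE 0.16, adjusted p = 9.61e-05, edgeR). The zinc finger factor KLF2 rose, with 8.30, 7.43 and 7.67 CPM in ZFX12_13 libraries, against 4.02, 3.23 and 3.69 in wtZFX libraries and 1.97, 2.70 and 2.34 with pCMV6. No groups overlapped (log2 change 1.11, SE 0.14, adjusted p = 1.96e-05, edgeR).

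Single members stood out of lists that otherwise gave few calls. E2F1, a transcription factor of entry into S phase, had 119, 116 and 117 CPM in ZFX12_13 libraries, against 192, 183 and 194 in wtZFX libraries and 143, 136 and 137 with pCMV6. ZFX12_13 libraries were below the empty vector and wtZFX libraries above it (log2 change of ZFX12_13 minus wtZFX -0.67, SE 0.06, adjusted p = 1.28e-07, edgeR), while of the 43 replication genes 4 rose and 2 fell, E2F1 included. ERN1, the IRE1 sensor of protein folding in the endoplasmic reticulum, had 31.7, 38.5 and 36.1 CPM in ZFX12_13 libraries, against 62.9, 63.4 and 61.0 in wtZFX libraries and 31.3, 29 and 30.6 with pCMV6. It was near the empty vector and 1.74-fold below wtZFX (log2 change -0.80, SE 0.08, adjusted p = 6.02e-07, edgeR), and of the other 24 genes of that list EDEM1 alone was called (0.32). EPAS1, the hypoxia factor HIF-2 alpha, had 38.2, 43.4 and 42.7 CPM in ZFX12_13 libraries, against 73.7, 63.7 and 72.6 in wtZFX libraries and 20.3, 21.5 and 16.7 with pCMV6. It was the 1 call among 34 hypoxia and glycolysis genes (log2 change -0.74, SE 0.07, adjusted p = 1.31e-06, edgeR). Among chromatin genes, a list that covers several separate histone deacetylase complexes held 5 falls and 1 rise of 33. The deacetylase HDAC4 (log2 change -0.50), SIN3B (-0.42), a scaffold of the SIN3 complex, and RCOR1 (-0.34), of the CoREST complex, were the largest falls. The list held 3 falls without wtZFX replicate 1 or 2, and 4 rises without ZFX12_13 replicate 1. Of 24 genes of the SAGA, ATAC, p300 and CBP acetyltransferases 3 rose and none fell, TAF5L among them (0.44), with 1 rise without wtZFX replicate 1. Of 23 genes of the MSL, NSL, HBO1 and MOZ acetyltransferases 4 rose and 3 fell, BRD1 (0.40) and PHF20 (-0.23) being the largest in either direction. In that list 7 rose without ZFX12_13 replicate 1, 2 rose without ZFX12_13 replicate 2 or any 1 of the wtZFX libraries, and none fell without wtZFX replicate 1.

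Markers of other cell types also moved in both directions. Of 27 neuronal genes 5 were higher, or 3 without wtZFX replicate 3, and 4 lower. MAP6, which stabilises microtubules, had 28.8, 28.3 and 25.8 CPM in ZFX12_13 libraries, against 13.2, 9.79 and 12.4 in wtZFX libraries and 0.275, 0.190 and 0.348 with pCMV6. It was very low with the empty vector and highest with ZFX12_13 (2.37-fold over wtZFX, log2 change 1.24, SE 0.10, adjusted p = 1.15e-07, edgeR). NEFH, the heavy neurofilament chain, had 6.31, 5.51 and 7.31 CPM in ZFX12_13 libraries, against 1.49, 1.59 and 2.24 in wtZFX libraries and 1.79, 1.47 and 2.39 with pCMV6. ZFX12_13 libraries were all high, with wtZFX and pCMV6 in 1 range (3.59-fold, log2 change 1.84, SE 0.19, adjusted p = 1.73e-06, edgeR). Of 21 epithelial junction and keratin genes 4 were higher and 2 lower, with 2 higher without ZFX12_13 replicate 2, wtZFX replicate 2 or wtZFX replicate 3. KRT8, a keratin of simple epithelia and a 293T marker, had 52.5, 47.9 and 47.1 CPM in ZFX12_13 libraries, against 32.1, 34.9 and 31.1 in wtZFX libraries and 16.8, 15.2 and 14.8 with pCMV6. It rose without overlap (log2 change 0.61, SE 0.08, adjusted p = 1.24e-05, edgeR), and by 0.34 with both stranded columns summed. CLDN6, a tight junction claudin of the same list, had 3.56, 2.61 and 2.80 CPM in ZFX12_13 libraries, against 5.16, 6.41 and 3.85 in wtZFX libraries and 2.75, 2.32 and 3.43 with pCMV6. It fell at a low level without overlap (log2 change -0.75, SE 0.20, adjusted p = 0.0133, edgeR), a call lost without ZFX12_13 replicate 2 or wtZFX replicate 2. PAX2, a factor of kidney development, had 8.30, 8.07 and 9.44 CPM in ZFX12_13 libraries, against 13.9, 12.1 and 11.8 in wtZFX libraries and 2.34, 1.99 and 1.94 with pCMV6. It fell without overlap (log2 change -0.53, SE 0.11, adjusted p = 0.00274, edgeR). The intermediate filament NES (log2 change -0.72), the proteoglycan CSPG4 (-0.66) and the transcription factor OLIG1 (-0.77), on a marker list of the series' other line, the glioblastoma line LN-229, fell among 12 tested, of which SOX10 was under 1 CPM in both groups.

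The promoter sequences of the called genes were set beside these changes, since ZFX acts at promoters. Windows from RefSeq on GRCh38.p14, from 250 bases before to 50 after a gene's start, were matched by symbol for 1048 of 1465 genes called higher, 1260 of 1710 called lower and 11939 of all 18594 tested. Where a gene has several windows in the table, the one nearest its annotated 5′ end was taken. These windows end 50 bases after the start, so sequence further downstream, on the side where ZFX is known to bind, was not searched. They were searched for AGGCCT, the core of the known ZFX motif, which reads the same on both strands. It stood in 13.5% of the windows of genes called higher, 8.57% of those called lower, 10.8% of those tested and 10.8% of 34961 windows in the table. None of the 6 leading falls and 7 leading rises with a window held it. Of 83 genes that were named by rule, called and had a window, 7 held it. The following 4 are shown because they pair the letters with either direction of change, falls for HSPG2 and ERN1 and rises for BCL3 and KAT2A. BCL3, an IkB family protein that binds NF-kB, had 11, 12.1 and 12.8 CPM in ZFX12_13 libraries, against 8.44, 8.75 and 9.12 in wtZFX libraries. Its groups did not overlap (log2 change 0.46, SE 0.11, adjusted p = 0.00603, edgeR). KAT2A, the acetyltransferase GCN5, had 129, 125 and 129.7 CPM in ZFX12_13 libraries, against 103.7, 116 and 109 in wtZFX libraries. It rose by a small amount without overlap (log2 change 0.24, SE 0.06, adjusted p = 0.00815, edgeR), a call lost without wtZFX replicate 1 or 3. The windows are chr1:21937261-21937560, chr17:64130095-64130394 and chr17:42121318-42121617 on the minus strand for HSPG2, ERN1 and KAT2A, and chr19:44748458-44748757 on the plus strand for BCL3, each 5′ to 3′ along the gene with AGGCCT in capitals.
HSPG2: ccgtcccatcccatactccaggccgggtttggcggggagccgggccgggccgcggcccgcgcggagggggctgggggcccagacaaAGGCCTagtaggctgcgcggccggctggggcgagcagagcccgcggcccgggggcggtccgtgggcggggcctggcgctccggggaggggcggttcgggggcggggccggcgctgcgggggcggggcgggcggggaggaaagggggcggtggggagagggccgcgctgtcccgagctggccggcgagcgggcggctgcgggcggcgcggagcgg
ERN1: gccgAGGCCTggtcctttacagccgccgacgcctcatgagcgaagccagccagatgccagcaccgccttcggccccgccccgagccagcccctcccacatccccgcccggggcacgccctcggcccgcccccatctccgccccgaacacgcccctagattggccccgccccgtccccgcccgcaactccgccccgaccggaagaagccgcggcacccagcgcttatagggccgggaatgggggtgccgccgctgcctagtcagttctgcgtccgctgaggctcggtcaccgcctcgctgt
BCL3: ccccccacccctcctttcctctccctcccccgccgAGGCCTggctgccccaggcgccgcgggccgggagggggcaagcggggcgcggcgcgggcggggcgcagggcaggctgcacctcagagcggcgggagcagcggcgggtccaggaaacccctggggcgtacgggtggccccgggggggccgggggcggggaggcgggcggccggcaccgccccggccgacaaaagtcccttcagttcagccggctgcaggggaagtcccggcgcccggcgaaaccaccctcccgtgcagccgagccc
KAT2A: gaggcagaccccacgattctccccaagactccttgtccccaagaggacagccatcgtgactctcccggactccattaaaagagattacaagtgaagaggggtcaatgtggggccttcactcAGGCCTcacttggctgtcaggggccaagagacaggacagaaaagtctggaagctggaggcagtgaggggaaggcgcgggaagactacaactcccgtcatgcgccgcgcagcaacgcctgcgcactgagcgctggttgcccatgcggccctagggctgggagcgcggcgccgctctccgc
The HSPG2, ERN1, BCL3 and KAT2A windows hold the letters once each and are 83.3%, 73.7%, 80% and 62% G or C. Their start sites lie 13, 675, 1003 and 9 bases from the 5′ end of the gene in the GENCODE annotation. A match is a description of the sequence and not a binding site. GC content differed between the sets as a whole: the median over exons was 51.5% for genes called higher, 53.5% for genes called lower and 48.8% for all tested, and the median longest transcript was 3365, 4020 and 3128 bases. With offsets for GC content and length in the fit, all 24 leading genes were still called.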

How the data were processed

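RNA-seq gene counts of 3 ZFX12_13, 3 wtZFX and 3 pCMV6 libraries of DKO cells were analysed; groups come from the sample titles. The authors deposited whole-number counts per gene, laid out as STAR writes them: an unstranded column and 1 for each strand. Per the labels' protocols total RNA was extracted with Trizol and libraries were made with the NEBNext Ultra II RNA kit. Per the submitters' processing notes, STAR, HTSeq, DESeq2 and the builds hg38 and GRCh38 were used, without versions or roles. The unstranded column was used, since 50.08% to 50.19% of stranded reads fell on the first strand column of the 6 libraries; of total reads 72.37% to 74.79% were counted on genes, and summary lines that name no gene were left out. All 58721 gene IDs match GENCODE 29 on GRCh38.

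The 6 libraries were fitted with edgeR 4.0.16 in R 4.3.3 (quasi-likelihood, robust, 1 coefficient per group, TMM factors, filterByExpr), with a call at an adjusted p of 0.05 (Benjamini-Hochberg over every gene tested). SE is the size of the log2 change divided by the square root of F, and the biological coefficient of variation was 6.23%. CPM use totals scaled by TMM factors of the 9 DKO libraries, except the plain values of ZFX and ZNF711. Comparisons with pCMV6 come from a fit of all 9. The self-test used counts simulated gene by gene from the fitted means and dispersions of the 6 libraries. In it 74.6%, 92.5% and 100% of genes planted at 1.5-, 2- and 4-fold were recovered, with 14 false calls of 18296 genes. The simulation held no library-wide shift such as that of ZFX12_13 replicate 1, so it cannot give the rate of false calls in the real libraries.

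Named genes are ZFX and ZNF711, the 12 largest rises and 12 largest falls among called protein-coding genes at a mean of at least 5 CPM without overlap, and up to 3 called members of each list with the largest change; further members are named to account for the lists, and the chromosome 16 neighbours and gene families were chosen after their values were seen. The comparison, members and lists were chosen with earlier results of these data known. Of the list entries 55 had too few reads to be tested, none above 0.755 CPM. Single values of a few list members are not reported here, though their lists count them. Alternatives were upper-quartile or RLE factors, DESeq2 1.42.0, testing without a filter or at 1 CPM in 3 libraries, all 9 libraries in the fit, a replicate block, both stranded columns summed, ZFX left out, GC and length offsets, and each library left out. Python 3.11.15 with numpy 2.4.6 and matplotlib 3.10.9 read the data and drew the figures.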

Additional observations from a re-analysis of the deposited data

Results flagged for a closer look

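ERICH6B was called in data outside the main measurement, among 2296 genes that had enough reads only with both stranded columns summed, of which 213 were called. Of the 213, 6 were protein-coding, at 5 CPM or more and without overlap between the groups. ERICH6B was the rise among them, and SPATA21, C6orf201, C10orf105, PRSS54 and CTRL fell. ERICH6B overlaps COG3 on the opposite strand over 5.61% of its exon length, and unstranded counting drops reads where both genes overlap. It had 6.57 ± 0.147 CPM in ZFX12_13 libraries, against 4.96 ± 0.480 in wtZFX libraries and 6.55 ± 0.149 with pCMV6 (SD, n = 3 libraries each). The log2 change of 0.414 (SE 0.13) passed at an adjusted p of 0.0371 by edgeR's quasi-likelihood test with Benjamini-Hochberg adjustment, and all 3 ZFX12_13 libraries were above all wtZFX libraries. Since both columns together do not separate the strands where genes overlap, its reads and those of COG3 cannot be told apart.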

How the results depend on the processing

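The 24 leading genes were called in the same direction in all 16 alternatives run. The number of genes called, 3175, was 2123 to 4099 with each library left out, with 940 to 1921 higher, 1183 to 2178 lower and 964 to 1162 at 1.5-fold or more; the lowest were without wtZFX replicate 1 and the highest without ZFX12_13 replicate 1. DESeq2 gave 1137 higher and 1401 lower, no filter 1293 and 2146, all 9 libraries in the fit 1885 and 2059, and GC and length offsets 1976 and 2012. Deviations of same-numbered libraries from their group means were weakly correlated (r = 0.06, 0.03 and -0.07). With 3 libraries in a group this cannot decide whether the numbers pair the samples. With a replicate block 1610 genes were higher and 1827 lower. Of 209 named genes none changed direction, 29 lost their call with DESeq2, 24 with no filter and 9 with the block, and 14 to 71 with a library left out, most without wtZFX replicate 1. ZFX gained a call with no filter, with the block and without ZFX12_13 replicate 3. The cause was not tested.

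Limits: the 3 libraries of a group may be technical replicates, 1 ZFX12_13 library stood apart, ZFX12_13 libraries were shallower, and counting without strand leaves overlapping genes uncertain. The self-test planted no change under 1.5-fold. List counts of 5 or fewer often moved with a library left out, and some larger ones did too. The p53 rises went from 10 to as few as 4 and the BCL2 family rises from 7 to 2, while the Notch falls stayed at 9. Comparisons with pCMV6 share libraries with the main one.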

Other observations

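Gene families picked by symbol after the data had been examined showed which surface genes were among the falls. Only protein-coding genes were counted in them. Of 37 tested genes of collagen alpha chains 14 were called lower (37.8%) and 2 higher with ZFX12_13. Among all tested genes 9.2% were lower, and among protein-coding genes 11% were lower and 8.63% higher. With each library left out 10 to 14 collagen genes were lower. COL9A2, a chain of cartilage collagen IX, had 9.53, 8.18 and 9.19 CPM in ZFX12_13 libraries, against 19, 22.9 and 20.2 in wtZFX libraries and 6.01, 5.78 and 6.82 with pCMV6. It fell 2.27-fold (log2 change -1.18, SE 0.11, adjusted p = 3.67e-07, edgeR). Integrin chains, the receptors for such matrix, had 7 of 22 lower and 2 higher, with 4 lower without wtZFX replicate 2. ITGB4, the beta chain of the laminin receptor of hemidesmosomes, had 10.7, 12.5 and 11.4 CPM in ZFX12_13 libraries, against 30.1, 33.7 and 30.7 in wtZFX libraries and 4.95, 5.31 and 5.47 with pCMV6. The groups did not overlap and the fall was 2.69-fold (log2 change -1.43, SE 0.09, adjusted p = 4.46e-09, edgeR).

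Genes with symbols of the solute carrier type (SLC) had 58 of 281 lower (20.6%) and 25 higher (8.9%), and 34 lower without wtZFX replicate 1. Solute carriers move nutrients and ions across membranes, but these genes were taken by symbol and not by function. SLC24A2, a sodium, calcium and potassium exchanger, had 1.75, 1.92 and 1.70 CPM in ZFX12_13 libraries, against 5.96, 5.77 and 6.51 in wtZFX libraries and 1.05, 1.04 and 1.29 with pCMV6. It fell 3.34-fold (log2 change -1.74, SE 0.17, adjusted p = 9.12e-07, edgeR). Of 14 carbohydrate sulfotransferase genes 4 were lower, of 15 polypeptide GalNAc transferase genes 4 were lower, and of 57 potassium channel genes 10 were higher and 8 lower. Of 12 laminin chain genes 1 was lower (8.33%) and none higher.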
